A study of Mus musculus with 17 samples.

Results

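p130 occupancy was compared between Stag2-KO and Stag2-WT urothelium by CUT&RUN, in which an antibody directs a nuclease to cut and release the DNA around a protein in permeabilised cells. The comparison covers 6 of the 15 libraries of the series that have a peak list, chosen by their antibody: 3 libraries labelled p130-KO and 3 labelled p130-WT. The source was urothelium peeled from mouse bladders, about 500000 cells per condition, 1 week after induction with TMX in both genotypes. The sources used here give neither the promoter behind the inducible deletion, nor the animals' age or sex, nor how many animals gave each library. All KO libraries and p130-WT 2 and 3 are of batch 3, while p130-WT 1 is of batch 2. The library numbers are those of the labelled biological replicates, and p-values measure the spread between these libraries.

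p130 (gene Rbl2) is a pocket protein of the retinoblastoma family. In resting cells it joins E2F4 or E2F5, a DP partner and the MuvB core, which includes LIN54, to form the DREAM complex that holds cell cycle genes silent. E2F proteins read E2F sites in promoters of DNA replication genes, and LIN54 reads the cell cycle homology region (CHR) in promoters of mitotic genes. STAG2 belongs to cohesin, a ring-shaped complex that holds DNA loops and sister chromatids. The adult urothelium is a largely quiescent epithelium, and the study asks whether STAG2 works with DREAM there.

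The deposited lists of chromosomes 1 to 19 held 359630, 395863 and 388334 peaks in p130-KO 1, 2 and 3, and 506896, 357835 and 354316 peaks in p130-WT 1, 2 and 3. These lists reach down to an unadjusted p of 0.05, and only 555, 313 and 320 KO peaks and 393, 886 and 442 WT peaks passed a q of 0.01. The genome background was similar, at 1.46, 1.81 and 1.62 fragments per base in the KO libraries and 1.63, 1.44 and 1.48 in the WT libraries. p130-WT 1 and p130-WT 2 stood apart from the rest. Chromosome X held 5.98% of all peaks of p130-WT 1, the library of the other batch, against 0.310% to 0.330% in the KO libraries and 0.440% and 0.465% in p130-WT 2 and 3. p130-WT 2 had the most peaks at q 0.01 and the most marked gene ends. Results are given for chromosomes 1 to 19. Protein-coding genes with a summit no more than 500 bp from their start or their end are called marked.

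The promoters of the strongest p130 sites are shown first, because the same few promoters led the lists of both genotypes. Each line gives 250 bases before to 50 bases after an annotated start, 5′ to 3′ on the strand of the gene, from RefSeq (GRCm38.p6). Capitals mark 3 motifs found on either strand: the CHR (TTTGAA or TTCGAA), the E2F site (TTTCCCGC, TTTCGCGC, TTTGCCGC or TTTGGCGC) and the CCAAT box (CCAAT), the site of NF-Y. Top2a, Ncapg2 and Hmgb2 were the best ranked G2/M genes with a sequence in the table, in KO libraries. Slbp, Mcm5 and E2f3 were such G1/S genes, and H4c1 shared the best mean rank of all genes with H3c1.
Top2a (chr11:99024140-99024439, minus strand): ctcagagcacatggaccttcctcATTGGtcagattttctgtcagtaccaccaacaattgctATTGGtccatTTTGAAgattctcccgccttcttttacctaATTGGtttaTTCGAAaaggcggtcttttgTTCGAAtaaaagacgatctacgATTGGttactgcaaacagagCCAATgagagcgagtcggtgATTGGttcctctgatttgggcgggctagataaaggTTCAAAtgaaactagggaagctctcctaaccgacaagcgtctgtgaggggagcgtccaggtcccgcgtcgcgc
Ncapg2 (chr12:116405186-116405485, plus strand): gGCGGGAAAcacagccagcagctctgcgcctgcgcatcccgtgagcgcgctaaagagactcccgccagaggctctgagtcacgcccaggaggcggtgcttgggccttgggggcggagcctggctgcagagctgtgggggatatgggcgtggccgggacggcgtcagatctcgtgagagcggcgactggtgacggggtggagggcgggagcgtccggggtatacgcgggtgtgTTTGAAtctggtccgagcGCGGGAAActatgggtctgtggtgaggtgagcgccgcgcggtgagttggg
Hmgb2 (chr8:57511593-57511892, plus strand): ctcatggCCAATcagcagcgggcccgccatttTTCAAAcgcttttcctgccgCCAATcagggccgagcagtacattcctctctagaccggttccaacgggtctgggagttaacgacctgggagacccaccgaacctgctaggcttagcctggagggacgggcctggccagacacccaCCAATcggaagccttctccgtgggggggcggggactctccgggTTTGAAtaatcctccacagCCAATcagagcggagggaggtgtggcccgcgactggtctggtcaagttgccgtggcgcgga
Slbp (chr5:33652525-33652824, minus strand): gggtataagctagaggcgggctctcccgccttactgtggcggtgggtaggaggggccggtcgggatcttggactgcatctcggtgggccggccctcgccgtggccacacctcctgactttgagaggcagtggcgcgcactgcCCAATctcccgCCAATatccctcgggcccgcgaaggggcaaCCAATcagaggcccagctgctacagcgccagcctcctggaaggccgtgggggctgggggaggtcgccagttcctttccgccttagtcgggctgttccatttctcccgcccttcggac
Mcm5 (chr8:75109259-75109558, plus strand): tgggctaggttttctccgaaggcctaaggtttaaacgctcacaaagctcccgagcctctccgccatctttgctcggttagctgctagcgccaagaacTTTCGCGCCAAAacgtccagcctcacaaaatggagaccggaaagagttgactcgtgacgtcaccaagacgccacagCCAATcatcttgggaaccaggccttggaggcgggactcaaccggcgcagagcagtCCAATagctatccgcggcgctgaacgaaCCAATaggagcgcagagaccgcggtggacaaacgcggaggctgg
E2f3 (chr13:29986014-29986313, minus strand): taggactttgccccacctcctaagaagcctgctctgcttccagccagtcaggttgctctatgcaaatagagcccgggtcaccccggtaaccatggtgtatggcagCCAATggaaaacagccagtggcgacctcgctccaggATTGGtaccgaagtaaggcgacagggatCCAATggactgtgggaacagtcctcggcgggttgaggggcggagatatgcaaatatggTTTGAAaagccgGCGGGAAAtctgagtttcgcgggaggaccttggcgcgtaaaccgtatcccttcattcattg
H4c1 (chr13:23761200-23761499, minus strand): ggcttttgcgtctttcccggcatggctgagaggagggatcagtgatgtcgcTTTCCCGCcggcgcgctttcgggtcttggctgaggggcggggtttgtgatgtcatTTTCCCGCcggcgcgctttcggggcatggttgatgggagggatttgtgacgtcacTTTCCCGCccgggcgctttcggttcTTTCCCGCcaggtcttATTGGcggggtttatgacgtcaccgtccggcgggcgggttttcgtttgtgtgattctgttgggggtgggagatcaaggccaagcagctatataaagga

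Top2a, which encodes topoisomerase II alpha, held 4 CHR and 6 CCAAT matches and no E2F match. Its summits lay at −66, −101 and −80 from the start in KO 1, 2 and 3 and at −72, −79 and −53 in WT 1, 2 and 3, where negative positions are upstream. CCAAT boxes begin at −98, −78 and −58, so all 6 summits were next to one. Ncapg2, a condensin II subunit, held a CHR match that begins at −18 and an E2F match that begins at the start itself. Hmgb2, a chromatin protein of the high mobility group, held 2 CHR and 4 CCAAT matches. Mcm5, part of the replicative helicase, held 2 E2F matches that overlap each other. E2f3 held 1 CHR, 1 E2F and 3 CCAAT matches, while Slbp, the histone mRNA stem-loop binding protein, held 3 CCAAT matches and neither of the other motifs. H4c1, a histone H4 gene, held 4 E2F matches of the same form. Its summits lay at −183, −201 and −194 in KO and at −222, −215 and −200 in WT, around the outermost of these matches, which begins at −199.

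The 3 motifs were counted in promoters marked in KO and in WT, sets that share most of their genes. Of 138 promoters with a peak at q 0.01 in all 3 KO libraries, 25.4% held a CHR match, 38.4% an E2F match and 73.9% a CCAAT box. Of 155 such promoters in all 3 WT libraries, 31.0% held a CHR match, 31.6% an E2F match and 74.2% a CCAAT box. Among all 20085 promoters of the same length on these chromosomes, the shares were 17.0%, 2.85% and 38.1%. As a ratio to the share among all promoters, the E2F site was the most over-represented of these 3 motifs and the CHR the least, in both sets. Matches of AP-1 (TGANTCA), in 4.35% of the KO and 3.87% of the WT set, were below their 7.06% among all promoters, and ETS (CCGGAAG) matches, in 14.5% of the KO and 13.5% of the WT set, were near their 11.9% among all promoters. NRF1 (CGCATGCG) matches were in 3.62% and 3.87% against 2.54%, and CRE (TGACGTCA) matches in 4.35% and 3.23% against 2.30%. In promoters marked at q 0.01 in all 6 libraries, the median CCAAT match was centred at −98, against −88 among all promoters. These are counts of letters in a window, and marked promoters were also richer in CpG, with a median of 24 CpG in both sets against 14 among all promoters.

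Strong p130 peaks sat just upstream of gene starts in both genotypes. At q 0.01, 65.3%, 56.9% and 58.1% of the KO peaks and 51.4%, 64.7% and 59.9% of the WT peaks had their summit within 500 bp of an annotated start. The median summit lay at −109, −115 and −108.5 bp from the start in KO and at −103.5, −101 and −122 bp in WT. Isolated 3′ ends, those with no other gene end within 1000 bp, were nearly free of such peaks: 1 or 2 of 12512 in a KO library and 3 to 5 in a WT library. Among deposited peaks the starts held far less of the total, at 1.16% to 1.37% of KO peaks and 1.21% to 2.16% of WT peaks.

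**Figure D1:**
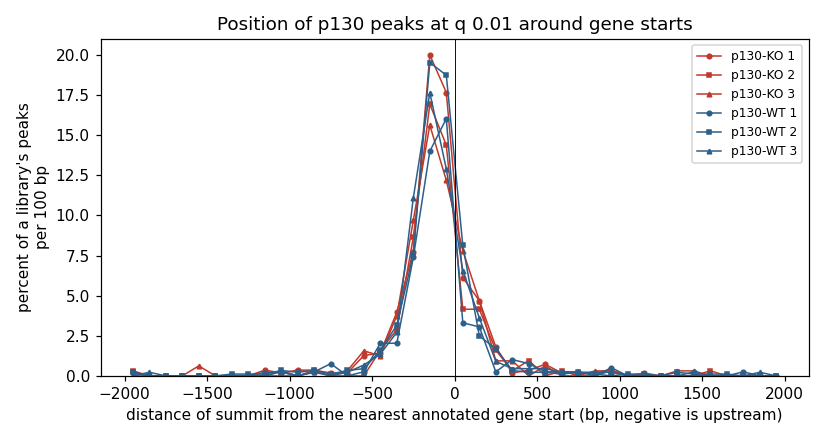
Summits of p130 peaks at q 0.01 around the nearest annotated gene start, as percent of each library's peaks per 100 bp (vertical axis) against distance in bp (horizontal axis, negative upstream). Red lines are the 3 KO libraries and blue lines the 3 WT libraries, and all of them are highest just upstream of the start, near the medians of −101 to −122 bp.

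Marked gene ends were fewer in every KO library than in any WT library among the deposited peaks. They numbered 7489, 7791 and 7280 of 20665 genes in KO 1, 2 and 3, against 9453, 10087 and 8257 in WT 1, 2 and 3. The mean log2 number differed by −0.30 (KO 12.88 ± 0.05, WT 13.17 ± 0.15, SD, n = 3 each), with p = 0.1 in a two-sided exact permutation test, the smallest p that 3 against 3 allow. The difference was −0.28 without p130-WT 1, which leaves batch 3 alone, and −0.23 without p130-WT 2, and the groups did not overlap. The share of peaks at gene ends was 2.12% ± 0.11 in KO and 2.59% ± 0.45 in WT (SD, n = 3 each; two-sided exact permutation p = 0.2). The log2 number of peaks differed by −0.07 (two-sided exact permutation p = 1) and the median width by 23.3 bp (p = 0.4 in the same test), and neither difference exceeded the spread between libraries. At q 0.01 the groups overlapped, with 462, 235 and 241 marked genes in KO and 263, 700 and 343 in WT (log2 difference −0.42, two-sided exact permutation p = 0.5).

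Most of the leading genes were the same in both genotypes. Deposited peaks marked 1941 genes in all 3 KO libraries (9.39% of genes) and 3105 in all 3 WT libraries (15.0%). At q 0.01 these were 149 genes in KO (0.721%) and 166 genes in WT (0.803%), and among the 20000 best peaks of each library 310 genes in KO (1.50%) and 382 in WT (1.85%). At q 0.01, 112 genes, 75.2% of the KO set and 67.5% of the WT set, were marked in all 6 libraries. They rest on 92 distinct summits, since 40 of the genes share a summit with a neighbour. Of the 149 KO genes, 148 had a peak at q 0.01 in at least 1 WT library, and 146 had a deposited peak in all of them. Of the 166 WT genes, 161 had a peak at q 0.01 in at least 1 KO library, and 155 had a deposited peak in all of them. Without p130-WT 1, the genes shared at q 0.01 by all libraries numbered 128.

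H4c1, with its divergent neighbour H3c1, was the best ranked site in KO. The authors' fold over local background at its summit was 39.8, 22.4 and 24.5 in KO 1, 2 and 3, against 18.1, 13.8 and 21.0 in WT 1, 2 and 3. Top2a, the best ranked gene in WT, had folds of 26.7, 17.6 and 16.2 in KO, against 15.8, 12.9 and 18.5 in WT. The folds of the genotypes overlapped at Top2a and did not at H4c1, where the fragments piled at the summit overlapped nonetheless (107, 69 and 70 in KO, against 82, 58 and 97 in WT). Mdc1, a mediator of the DNA damage checkpoint, had folds of 33.7, 17.6 and 18.3 in KO, against 13.6, 13.8 and 18.9 in WT. Mcm5 had folds of 17.0, 9.21 and 11.6 in KO, against 13.5, 18.6 and 24.7 in WT. Slbp had folds of 24.3, 15.5 and 21.8 in KO, against 9.35, 13.5 and 23.2 in WT. Cdkn2d, the CDK4/6 inhibitor p19, had folds of 17.4, 8.80 and 13.6 in KO, against 6.54, 14.4 and 11.9 in WT. At each of these 4 genes the folds of the genotypes overlapped. KO 1 had the highest fold of the KO libraries at all of these 6 genes, and over the 112 shared genes its median fold was 10.6, against 6.59 and 6.75 in the other KO libraries and 6.48, 6.71 and 7.94 in WT 1, 2 and 3.

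**Figure D2:**
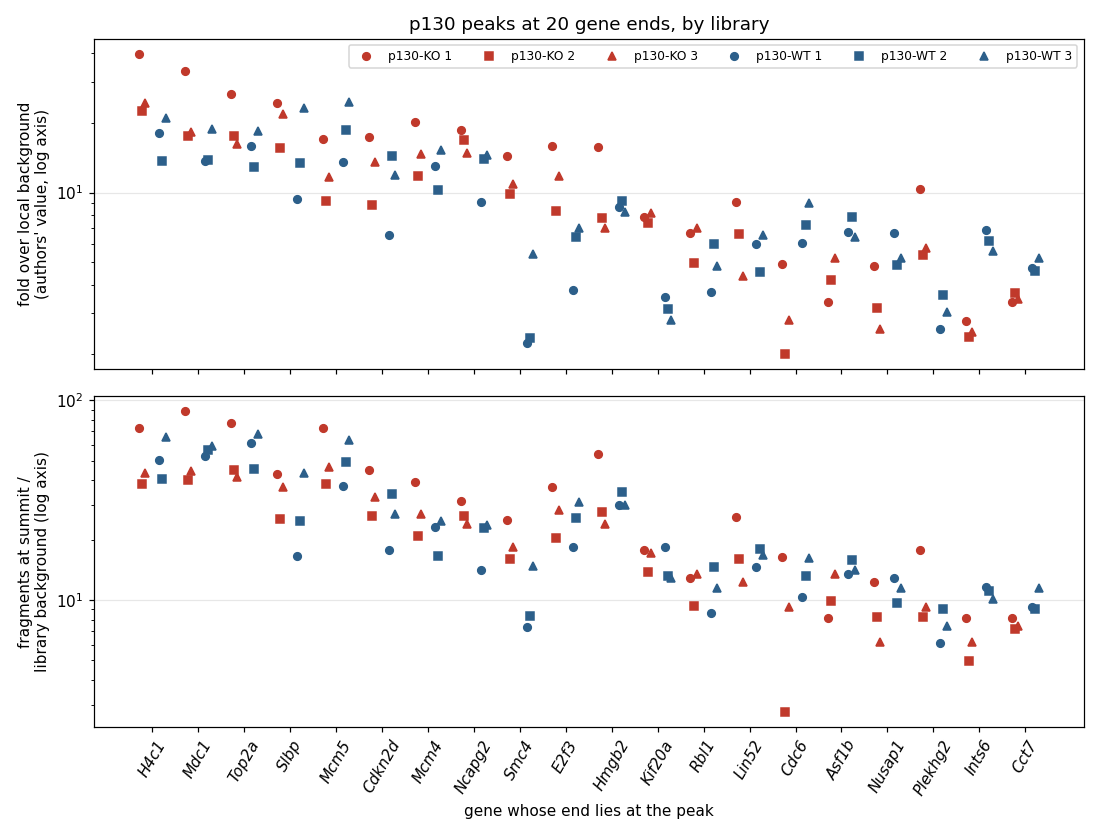
p130 at 20 gene ends, with the fold over local background in the upper panel and the fragments at the summit divided by the library's genome background in the lower panel (both on log axes). Each point is a library, with KO in red on the left of each gene and WT in blue on the right. The 6 points overlap at most of the strongest genes. Smc4 and Ncapg2 (KO higher) and Ints6 and Cct7 (WT higher) are apart in both panels. H4c1, E2f3, Kif20a and Plekhg2 (KO higher) and Cdc6, Asf1b and Nusap1 (WT higher) are apart only in the upper one.

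Mitotic genes were among the strong p130 sites of both genotypes. Of 85 G2/M genes of the DREAM target list, 40.0%, 25.9% and 23.5% had a peak at q 0.01 in KO 1, 2 and 3, and 22.4%, 32.9% and 25.9% in WT 1, 2 and 3. In all 3 libraries of the genotype these were 14 genes in KO (16.5%) and 11 in WT (12.9%), against the 0.721% and 0.803% of all genes, and 9 were common to both. The 9 were Top2a, Ncapg2, Hmgb2, Cdk1, Cdc25c, Cdca2, Ect2, Fbxo5 and Ncapd2. Cdk1, the kinase that drives entry into mitosis, had folds of 7.67, 4.61 and 4.14 in KO, against 6.51, 6.45 and 5.53 in WT. Cdc25c, the phosphatase that activates it, had folds of 8.12, 5.44 and 4.22 in KO, against 3.44, 4.35 and 4.25 in WT. For both genes the ranges overlapped. Ect2, an exchange factor needed for cytokinesis, had folds of 8.55, 5.93 and 7.34 in KO, against 10.7, 7.79 and 12.5 in WT. Fbxo5 encodes the APC/C inhibitor EMI1, Ncapd2 a condensin I subunit and Cdca2 a protein that brings a phosphatase to mitotic chromosomes.

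Smc4, Kif20a, Kif22, Ube2s and H2az1 met q 0.01 in all KO libraries but not in all WT libraries, and Kif15 and Nusap1 the reverse. Smc4, the shared ATPase of the condensins, had folds of 14.3, 9.86 and 10.9 in KO, against 2.25, 2.35 and 5.41 in WT. It also had 37, 29 and 30 fragments at the summit in KO, against 12, 12 and 22 in WT, so the genotypes were apart on both measures. The genes of this paragraph were chosen by q, which depends on both measures, so such gaps are a description and no separate support. Kif20a, a kinesin of the central spindle, had folds of 7.83, 7.35 and 8.15 in KO, against 3.53, 3.15 and 2.82 in WT. Its summit fragments were 26, 25 and 28 in KO, against 30, 19 and 19 in WT, and these overlapped. Nusap1, a spindle protein, had folds of 4.79, 3.16 and 2.57 in KO, against 6.65, 4.84 and 5.23 in WT, and its summit fragments overlapped (18, 15 and 10 in KO, against 21, 14 and 17 in WT). At Kif22, a chromosome-arm kinesin, WT 1 had no peak, while WT 2 and 3 had folds of 6.66 and 9.98. Without the q threshold, deposited peaks marked 51 G2/M genes in all KO libraries and 61 in all WT libraries, 43 of them in all 6 (60% and 71.8% of the list, against 9.39% and 15.0% of all genes). Without p130-KO 2 the counts were 62 in KO and 61 in WT. That count asks for a mark in 2 KO libraries but in 3 WT libraries, which raises the KO count by construction. Over all genes it rose from 1941 to 3427, so the order of these 2 counts cannot be read.

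Genes of DNA replication and S phase entry gave 15 marked genes of 90 in all KO libraries at q 0.01 (16.7%) and 16 in all WT libraries (17.8%), of which 14 were common. The 14 were Bard1, Cdc25a, Chtf18, Dtl, E2f1, E2f3, Gins1, Gins2, Mcm3, Mcm4, Mcm5, Mcm7, Pcna and Slbp. Mcm7 had folds of 17.4, 9.48 and 11.2 in KO, against 13.6, 6.45 and 12.8 in WT, and Pcna, the polymerase clamp, 6.90, 4.82 and 6.71 in KO, against 6.55, 4.61 and 7.79 in WT. E2f1, which activates S phase genes, had folds of 6.15, 6.58 and 4.40 in KO, against 5.87, 6.38 and 7.32 in WT. All of these ranges overlapped. Mcm3 was the single gene of the 112 with every WT fold above every KO fold, at 7.77, 5.71 and 4.02 in KO, against 14.6, 7.85 and 8.14 in WT. Its summit fragments overlapped, at 29, 25 and 15 in KO, against 41, 23 and 27 in WT. Cdc6, the licensing ATPase, and Asf1b, a histone chaperone, were at q 0.01 in all WT libraries and in 1 and 2 KO libraries. Cdc6 had folds of 4.92, 2.00 and 2.81 in KO, against 6.06, 7.27 and 8.98 in WT, and summit fragments of 24, 5 and 15 in KO, against 17, 19 and 24 in WT. Asf1b had folds of 3.37, 4.17 and 5.21 in KO, against 6.78, 7.85 and 6.40 in WT, and summit fragments of 12, 18 and 22 in KO, against 22, 23 and 21 in WT. For both genes the folds were apart and the fragments overlapped. Both were picked by their q in WT, which favours higher folds there, so the gap in fold is a description. Timeless, of the replication fork, was at q 0.01 in all KO libraries and in WT 3, where its fold of 6.79 was above the 4.92, 4.90 and 4.22 of the KO libraries.

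Some of the complex's own genes were marked. Of 16 genes of MuvB subunits, pocket proteins and partners, Lin52 and Rbl1 met q 0.01 in all KO libraries (12.5%, against 0.721% of all genes) and Lin52 in all WT libraries (6.25%, against 0.803%). Lin52, a MuvB subunit, had folds of 9.14, 6.59 and 4.34 in KO, against 5.98, 4.55 and 6.59 in WT. Rbl1, which encodes the related pocket protein p107, had folds of 6.72, 4.98 and 7.04 in KO, against 3.73, 6.01 and 4.82 in WT. Rbl2 itself had a deposited peak in 1 KO and 1 WT library and Lin54 in 2 KO libraries and 1 WT library, none of them at q 0.01. Among 25 G1 cyclin, kinase and inhibitor genes, Cdkn2d and Cks1b met q 0.01 in all 6 libraries. Cks1b, a CDK subunit, had folds of 10.6, 7.47 and 6.87 in KO, against 5.01, 6.77 and 5.82 in WT, while its summit fragments overlapped (25, 20 and 17 in KO, against 22, 20 and 19 in WT). Among 15 cohesin genes, only Esco2, the cohesin acetyltransferase, did so, with folds of 15.5, 11.0 and 10.4 in KO, against 11.5, 7.21 and 10.5 in WT. Of 63 replication-dependent histone genes, H4c1 and H3c1 met q 0.01 in all KO libraries, and H2ac22, H2bc14 and H2bc22 joined them in WT. H2bc14 had folds of 5.80, 2.72 and 3.37 in KO, against 8.94, 5.65 and 7.15 in WT, which overlap.

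At q 0.01, no gene of the luminal, basal, fibroblast, smooth muscle, immune, endothelial, p53 target, HOX, keratin or olfactory receptor lists was marked in all libraries of a genotype. Of all genes, 0.721% were so marked in KO and 0.803% in WT. Apart from the olfactory receptors, these lists have 10 to 49 genes and would hold few such genes. Their zeros set none of them apart. The olfactory receptor list is not short, and none of its 1100 genes had a peak at q 0.01 in any library. Among the genes of all these lists, only Esrp1 had such a peak in any library, in WT 1. The uroplakin gene Upk1b, a luminal marker, had deposited peaks of folds 1.81, 2.13 and 1.85 in KO, against 1.85, 2.75 and 2.64 in WT, each with 4 to 7 fragments. A p130 peak list does not show whether a marker is expressed, so the labelled tissue was not checked this way.

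**Figure D3:**
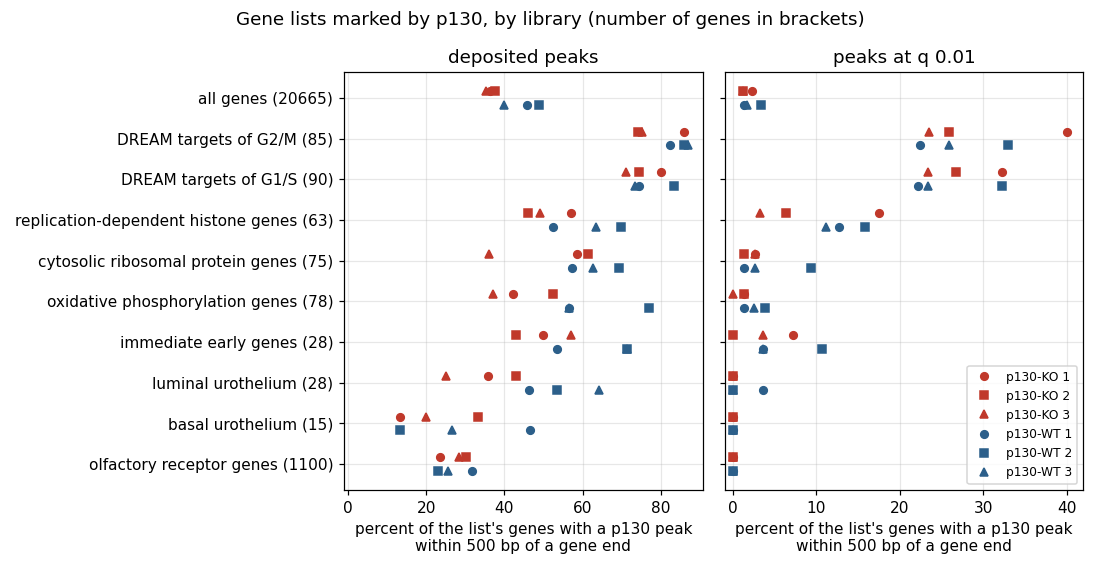
Percent of each list's genes with a p130 peak within 500 bp of a gene end (horizontal axis) for 9 lists and all genes, with deposited peaks on the left and peaks at q 0.01 on the right. Red points, above, are the 3 KO libraries and blue points, below, the 3 WT libraries. The 2 DREAM target lists stand to the right of all genes in every library, and the luminal and basal lists are at or near 0 at q 0.01.

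Among deposited peaks, the oxidative phosphorylation, luminal urothelium and G1 cyclin, kinase and inhibitor lists had more marked members in WT. For each of them every WT library had more than any KO library, as for all genes. Of the 24 lists, only these were apart in this way, and no list was tested. Of 78 oxidative phosphorylation genes, 33, 41 and 29 had a deposited peak in KO 1, 2 and 3, against 44, 60 and 44 in WT 1, 2 and 3, and 7 were marked in all KO libraries against 21 in all WT libraries. All genes stood at 36.4% ± 1.24 in KO and 44.8% ± 4.50 in WT, while this list stood at 44.0% ± 7.83 and 63.2% ± 11.8 (SD, n = 3 each). Of 75 cytosolic ribosomal protein genes, 13 were marked in all KO libraries and 26 in all WT libraries, although their counts per library overlapped (44, 46 and 27 in KO, against 43, 52 and 47 in WT). Of 28 luminal genes, 10, 12 and 7 were marked in KO, against 13, 15 and 18 in WT, without overlap. Their share was 34.5% ± 8.99 in KO and 54.8% ± 8.99 in WT (SD, n = 3 each). Of 25 G1 cyclin, kinase and inhibitor genes, 17, 9 and 13 were marked in KO, against 19, 19 and 18 in WT. These counts did not overlap either, and 5 of the genes were marked in all KO libraries against 11 in all WT libraries. Their share was 52.0% ± 16.0 in KO and 74.7% ± 2.31 in WT (SD, n = 3 each). Of 28 immediate early genes, 14, 12 and 16 were marked in KO, against 15, 20 and 20 in WT. Jun had folds of 3.10 and 3.26 in KO 1 and 3 and no peak in KO 2, against 4.71, 3.03 and 2.79 in WT. Of 20 p53 targets, 10, 9 and 4 were marked in KO, against 12, 11 and 10 in WT, with a tie at 10. The counts also overlapped for the proteasome genes (24, 22 and 21 of 47 in KO, against 25, 31 and 20 in WT) and the mitochondrial ribosomal protein genes (33, 43 and 33 of 78 in KO, against 38, 51 and 41 in WT). They overlapped as well for the basal genes (2, 5 and 3 of 15 in KO, against 7, 2 and 4 in WT) and the keratin genes (12, 22 and 13 of 49 in KO, against 25, 13 and 15 in WT). p130-WT 2 had the highest count of the 6 libraries for all genes, oxidative phosphorylation and ribosomal protein genes. Without it, the counts of p130-WT 1 and 3 for all genes and for oxidative phosphorylation genes were still above those of every KO library. Of the 1100 olfactory receptor genes, which belong to the nose, 27.3% ± 3.44 were marked in KO and 26.7% ± 4.48 in WT (SD, n = 3 each).

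At most of the shared genes whose folds were apart, the summit fragments over the library's genome background overlapped between the genotypes. Such an overlap does not show that the fragments were equal. Of the 112 shared genes, 13 (11.6%) had every KO fold above every WT fold and 1 (0.893%) the reverse. Among all 837 genes with a deposited peak in all 6 libraries, 6.45% had every KO fold above every WT fold and 8.96% the reverse. The fold divides the pileup by a local background, and the fragments at the summit divided by the library's genome background gave other counts. On that measure 3.57% of the 112 genes had every KO library higher and 0.893% every WT library, against 1.91% and 6.57% of the 837. Of the 13 genes, Ncapg2 and Pop7 were apart on both measures, and in 10 the local background was higher in every WT library. Of the 112 genes, 28.6% had a higher local background in every WT library and 21.4% in every KO library. Because the fold divides by this background, choosing genes by fold favours such a gap, and its part in the folds was not tested. The folds of E2f3 were 15.9, 8.35 and 11.8 in KO, against 3.79, 6.40 and 7.02 in WT, while the summit fragments were 54, 37 and 46 in KO, against 30, 37 and 46 in WT. Nfya, which encodes the CCAAT-binding subunit NF-YA, shares its summit with Oard1. It had folds of 20.01, 9.91 and 11.3 in KO, against 3.29, 6.46 and 7.82 in WT, and summit fragments of 60, 34 and 36 in KO, against 22, 40 and 45 in WT. Ncapg2 had folds of 18.6, 16.9 and 14.8 in KO, against 9.13, 13.9 and 14.5 in WT, and summit fragments of 46, 48 and 39 in KO, against 23, 33 and 35 in WT. Sets chosen by q in 1 genotype favour higher folds there, so their counts are a description. Of the 146 KO genes with a deposited peak in all libraries, 26 had every KO fold higher and 1 every WT fold, and Smc4, Ift80, Ncapg2 and Pop7 were apart in the fragments too. Of the 155 such WT genes, 13 had every KO fold higher and 16 every WT fold, and of the 16, Cct7, Ehbp1, Ints6 and Baz1b were apart in the fragments too.

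Few genes were marked in a single genotype. At q 0.01, Plekhg2 alone (0.00484% of genes) was marked in all KO libraries and no WT library, and 5 genes (0.0242%) were marked in all WT libraries and no KO library: Ints6, Nmt2, Mtor, Ehbp1 and Cct7. Each of them had deposited peaks of lower rank in the other genotype. They were chosen by q, which depends on both fold and fragments, so gaps in either are a description and no separate support. Plekhg2 had folds of 10.4, 5.37 and 5.75 in KO, against 2.58, 3.62 and 3.04 in WT. Its summit fragments over the library's genome background overlapped between the genotypes, and the region also overlaps a tRNA gene, n-TIaat16. Ints6, an Integrator subunit, had folds of 2.78, 2.36 and 2.49 in KO, against 6.88, 6.18 and 5.58 in WT, and 12, 9 and 10 summit fragments in KO, against 19, 16 and 15 in WT. Mtor, the growth kinase, had a fold of 3.21 in KO 1 and no peak in KO 2 and 3, against 4.72, 5.46 and 4.55 in WT. Cct7, a chaperonin subunit, had folds of 3.37, 3.69 and 3.48 in KO, against 4.71, 4.58 and 5.23 in WT. Nmt2 encodes a myristoyltransferase and Ehbp1 a protein of endosomal transport. The promoters of Plekhg2, Ints6 and Mtor are shown as the sites where the calls of the genotypes parted. Plekhg2 held an E2F match that begins at 13 bases after the start, and Ints6 and Mtor held a CHR match each.
Plekhg2 (chr7:28372613-28372912, minus strand): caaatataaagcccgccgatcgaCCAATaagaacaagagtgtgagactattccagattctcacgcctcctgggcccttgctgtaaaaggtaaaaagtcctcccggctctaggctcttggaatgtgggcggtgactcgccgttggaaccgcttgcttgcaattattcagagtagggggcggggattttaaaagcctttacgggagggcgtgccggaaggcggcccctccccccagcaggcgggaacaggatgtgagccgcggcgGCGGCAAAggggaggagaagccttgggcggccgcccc
Ints6 (chr14:62761063-62761362, minus strand): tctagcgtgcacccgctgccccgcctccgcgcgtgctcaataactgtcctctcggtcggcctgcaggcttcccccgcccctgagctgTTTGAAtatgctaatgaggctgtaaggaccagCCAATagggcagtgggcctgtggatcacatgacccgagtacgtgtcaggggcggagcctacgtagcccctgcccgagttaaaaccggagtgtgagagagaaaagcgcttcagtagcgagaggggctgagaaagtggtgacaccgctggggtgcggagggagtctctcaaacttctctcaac
Mtor (chr4:148448332-148448631, plus strand): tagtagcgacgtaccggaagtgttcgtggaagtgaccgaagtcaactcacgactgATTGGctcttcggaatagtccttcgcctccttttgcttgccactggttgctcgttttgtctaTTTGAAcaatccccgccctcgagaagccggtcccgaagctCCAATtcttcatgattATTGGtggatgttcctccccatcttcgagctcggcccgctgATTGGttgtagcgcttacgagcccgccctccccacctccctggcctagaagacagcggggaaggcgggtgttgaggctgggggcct

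With looser thresholds more genes were marked in a single genotype, and more of them in WT. Among the 20000 best peaks of each library, 13 genes (0.0629%) belonged to KO alone and 53 (0.256%) to WT alone. Such a choice favours higher folds in that genotype, so the folds given here are a description. The KO genes included Zfp414, Ubap2, Anapc7, an APC/C subunit, and Ctcf, the insulator protein. Ctcf had folds of 4.52, 3.29 and 3.53 in KO, against 2.66, 2.81 and 1.97 in WT. Cdkn2a, the INK4A and ARF locus, was also among them, with folds of 3.79, 3.64 and 3.20 in KO, against 2.06 in WT 1 and 2.64 in WT 3 and no peak in WT 2. The WT genes included Pelo, Acaa1a, the divergent pair Lrrc45 and Cenpx, and Vrk1, a chromatin kinase. Pelo, a ribosome rescue factor, had folds of 4.03, 5.54 and 6.16 in WT and no deposited peak in KO. The deposited peaks gave 187 genes (0.905%) with a mark in every KO library and in no WT library, and 516 (2.50%) of the opposite kind. Of the 516, Hspa9, a mitochondrial chaperone, had folds of 3.58, 4.10 and 3.30 in WT and no KO peak. They held 2 of the 85 G2/M genes, a share near that of all genes. One was Ccnb1, the mitotic cyclin B1, with folds of 3.75, 2.84 and 3.64 in WT and no KO peak. Without p130-WT 1 the counts became 290 in KO alone and 992 in WT alone, and at q 0.01 they became 3 and 29. Without p130-WT 2 the deposited counts were 372 in KO alone and 948 in WT alone. Where no peak was listed, occupancy was not detectable at this depth.

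Away from gene ends, p130 peaks were mostly weak and scattered. The 6 deposited lists merged into 1728252 regions, of which 1226 had a peak in all 6 libraries, and 693 of these lay within 1000 bp of a gene end. At q 0.01, 102 of 1656 regions were in all 6, and 98 of them lay within 1000 bp of a gene end. Of the other 4, 2 lay over 5 kb from any gene end. One was chr9:82973820-82974893 (mm10) inside Phip, with folds of 19.2, 11.3 and 16.5 in KO, against 13.1, 11.97 and 11.01 in WT. The other, chr13:9011688-9012223 in the lncRNA gene Gm36264, had folds of 2.58, 2.06 and 2.29 in KO, against 2.06, 5.11 and 2.62 in WT, on local backgrounds of 60.4 to 107 fragments. At q 0.01, 3 regions (0.181%) were in KO alone and 9 (0.543%) in WT alone. One of the KO regions, chr11:88969841-88970955, lies between genes, 3467 bp from the nearest coding gene Elobl, and had folds of 6.98, 7.99 and 7.54 in KO and no peak at q 0.01 in WT. Of the 9 WT regions, 5 are the promoters named above. The other 4, among them chr15:75086714-75086962 21323 bp from Ly6c2 and chr16:11143967-11144241 in Zc3h7a, had folds of 1.52 to 3.50 on a very high local background. At the first of these, 538, 415 and 424 fragments stood against backgrounds of 251, 220 and 217 in WT 1, 2 and 3. Among the 20000 best peaks, 23 regions of 113940 (0.0202%) were in KO alone and 65 (0.0570%) in WT alone.

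In the deposited lists, libraries of a genotype shared more bases with each other than with the other genotype. The bases shared by a pair of deposited lists, as a share of the bases in either (Jaccard index), were 4.03%, 4.12% and 4.64% in KO pairs, 4.12%, 4.30% and 4.32% in WT pairs and 2.86% to 3.16% in the 9 mixed pairs. The within-genotype pairs did not overlap the mixed pairs in these lists, and p130-WT 1 of batch 2 shared as much with WT 2 and 3 as these did with each other. The mean within minus between genotypes was 0.0125 as a fraction, with p = 0.1 in a one-sided exact permutation test, the smallest p possible here. Among stronger peaks the pairs overlapped. At q 0.01 the index was 26.1% to 28.4% in KO pairs, 13.0% to 21.9% in WT pairs and 13.2% to 28.8% in mixed pairs (difference 0.0178 as a fraction, one-sided exact permutation p = 0.2). Among the 20000 best peaks it was 1.46% to 1.92% in KO pairs, 1.68% to 2.61% in WT pairs and 0.962% to 2.38% in mixed pairs (difference 0.0035 as a fraction, one-sided exact permutation p = 0.1). In total 7615 regions (0.441%) were marked in all KO libraries and no WT library, and 8384 (0.485%) in all WT libraries and no KO library. They were spread over the genome, at 0.364% to 0.531% of the regions of a chromosome for KO and 0.403% to 0.581% for WT. They were weak, with a median fold of 2.43, 2.31 and 2.29 in KO 1, 2 and 3 for the first set and 2.34, 2.42 and 2.37 in WT 1, 2 and 3 for the second. Only 3.20% of the KO regions and 7.40% of the WT regions lay within 1000 bp of a gene end.

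The same regions were told apart by the libraries of the other antibodies, which took no part in choosing them. LIN54-KO 1 and 2 had peaks in 20.7% and 27.5% of the KO regions and STAG2-KO 1 and 2 in 27.9% and 22.9%, against 13.4% to 14.4% for the 3 LIN54-WT libraries and 14.1% and 15.3% for the STAG2-WT libraries. In the WT regions, the KO libraries of both antibodies had peaks in 15.6% to 20.1%, against 26.3% to 30.9% for the WT libraries. Of all merged p130 regions, these libraries had peaks in 11.4% to 13.5%, so each was above its own share in both sets. The KO and WT regions were also wider, with medians of 635 and 591 bp against 275 bp for all merged regions. The part of width in these shares was not tested. The percent of KO regions minus the percent of WT regions was 6.17 ± 4.78 in the 4 KO libraries and −14.8 ± 1.52 in the 5 WT libraries (SD). These differ with p = 0.00794 in a two-sided exact permutation test over the 9 libraries, the smallest p these 9 allow. The comparison was added after the data were examined. All tests over the 9 libraries count LIN54 and STAG2 libraries as separate units. The sources used here do not say whether these libraries share animals. With LIN54 alone the gap was 18.7 (two-sided exact permutation p = 0.1, the smallest possible). With STAG2 alone it was 23.5 (two-sided exact permutation p = 0.333, the smallest possible). With p130 regions taken from batch 3 alone, the gap of 20.9 over the 9 libraries became 16.8 (two-sided exact permutation p = 0.00794). All 9 are of batch 1, and STAG2-KO libraries are of cells that lack the antibody's target. At gene ends the same comparison gave −9.09 ± 5.24 in KO and −27.0 ± 4.20 in WT (two-sided exact permutation p = 0.00794).

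**Figure D4:**
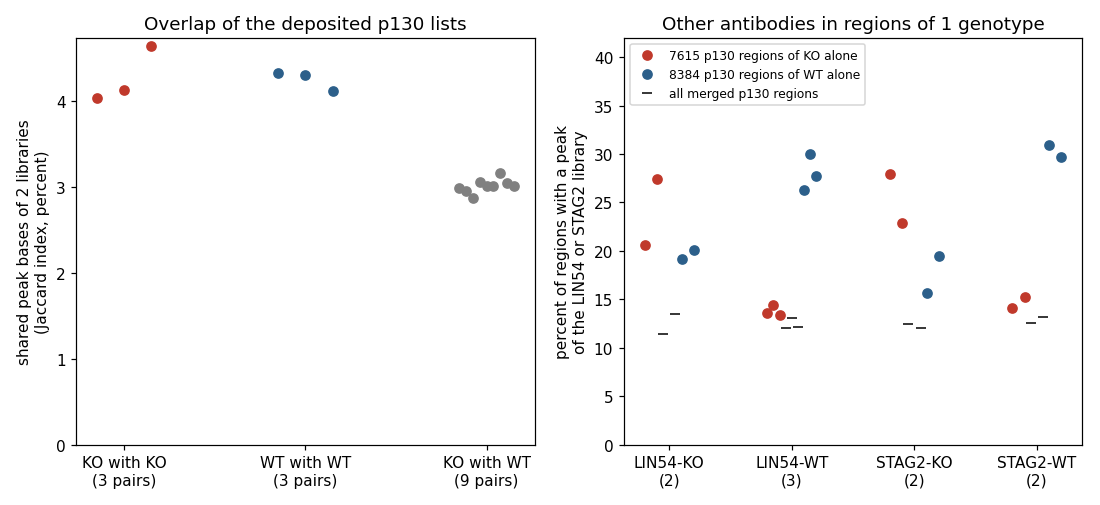
Left, shared peak bases of each pair of deposited p130 lists (Jaccard index in percent), where the KO and WT pairs lie at 4.03% to 4.64% and the 9 mixed pairs at 2.86% to 3.16%. Right, percent of the p130 regions of KO alone (red) and of WT alone (blue) that hold a peak of each LIN54 or STAG2 library, with black bars for all merged p130 regions. KO libraries have more of the red regions and WT libraries more of the blue.

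The strong p130 genes were also marked by LIN54 and STAG2 at q 0.01, to an extent that differed between the KO and WT libraries of each antibody. Both LIN54-KO libraries marked 91.9% of the 149 KO genes and 92.8% of the 166 WT genes, against 16.5% of all genes. All 3 LIN54-WT libraries marked 68.5% and 73.5% of the same sets, against 4.95% of all genes. The LIN54 shares thus differed little between the p130 sets, and LIN54-WT asks for a mark in 3 libraries where LIN54-KO asks for 2. Both STAG2-KO libraries marked 26.2% of the KO genes and 28.3% of the WT genes, against 2.01% of all genes, and both STAG2-WT libraries marked 77.9% and 81.3% of the same sets, against 13.1%.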

How the data were processed

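CUT&RUN peak lists of 6 p130 libraries (3 KO, 3 WT) were analysed, with 9 lists of LIN54 and STAG2 libraries for comparison. The pMNase samples are not analysed. The authors used bcl2fastq, Bowtie2 and MACS2 on mm10, per the submitters' processing notes. Versions, settings and any control library are not given in the sources used here. The deposited lists give each peak's fold (a ratio of pileup to local background), −log10 p and −log10 q, all values of the authors' caller within 1 library, used to describe, rank and filter. Read depth is not given; fragments at a summit and its local background were recovered from fold and p, and the lowest local background was taken as the library's genome background.

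A marked gene had a summit no more than 500 bp from its start or end (protein-coding genes of RefSeq, GRCm38.p6; 20665 genes on chromosomes 1 to 19). Peaks were used as deposited, at q 0.01, and as the 20000 best per library. Regions are merged peaks. Exact permutation tests over libraries were used; 3 against 3 cannot go below p = 0.1. The procedures were tested on simulated data. The members and lists were chosen with earlier results of these data known. Named genes are Rbl2, Lin54, the best ranked of each list and over all genes, and the best ranked of 1 genotype alone; others were chosen after their values were seen. Alternatives were the q threshold, the 20000 best peaks, the window, the overlap rule, batch 3 alone and each library left out. Computations used SciPy 1.17.1, pandas 2.3.3 and NumPy 2.4.6 under Python 3.11.15, and figures Matplotlib 3.10.9.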

Additional observations from a re-analysis of the deposited data

How the results depend on the processing

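The lower log2 number of marked gene ends in KO kept its direction under every alternative run, from −0.38 to −0.23 with a library left out. The difference in percent of peaks at gene ends ran from −0.673 to −0.226 with a library left out, but reversed to 1.77 at q 0.01 and to 4.58 at −log10 q of 5. With a library left out, the log2 number of peaks ran from −0.16 to 0.10, reversed without p130-WT 1, which leaves batch 3 alone (0.10), the width difference from 5 to 35 bp and the Jaccard difference from 0.0121 to 0.0130. At q 0.01, −log10 q of 5 and the 20000 best peaks, the width difference was 27.3, 38.7 and 18 bp and the Jaccard difference 0.0178, 0.0334 and 0.0035; the log2 number of peaks was −0.49 and −0.38 at the first pair of these. At −log10 q of 5, gene ends marked in all KO, all WT, KO alone, WT alone and all libraries numbered 81, 99, 5, 1 and 60, and regions in all 6, KO alone and WT alone 53, 6 and 6. At q 0.01 these were 149, 166, 1 and 5 gene ends and 102, 3 and 9 regions. With the 20000 best peaks they were 310, 382, 13 and 53 gene ends and 195, 23 and 65 regions. In batch 3 alone, 5103 gene ends were marked in all WT, 290 in KO alone and 992 in WT alone, 30296 regions were in WT alone, and at q 0.01 3 gene ends were in KO alone and 29 in WT alone. A window of 250 bp gave 755, 1191, 70 and 271 gene ends, and 2 in KO alone at q 0.01; one of 1000 bp gave 4642 and 6733. Matching summits within 250 bp gave 2899 regions in all 6. Asking for at least 2 libraries gave 963 and 2111 gene ends of 1 genotype alone, 22 and 42 at q 0.01, and 90264 and 95917 regions. With a library left out, gene ends in all KO numbered 1941 to 3531, in all WT 3105 to 5528, in KO alone 276 to 459 and in WT alone 769 to 1203. At q 0.01 they numbered 149 to 205, 166 to 239, 2 to 13 and 5 to 29, and in all libraries 113 to 128. Regions in all 6 numbered 1838 to 1963, in KO alone 8929 to 38388 and in WT alone 9885 to 40340. Fewer libraries asked for make such counts larger by construction; the cause of the other changes was not tested. The LIN54 and STAG2 gap was 18.7 with LIN54 alone (two-sided exact permutation p = 0.1, the smallest possible) and 23.5 with STAG2 alone (p = 0.333, the smallest possible), and 18.9 to 22.5 with a library left out. With the replicate number as a block, exact sign-flip p was 1 for the log2 number of peaks (−0.07), 0.5 for the percent at gene ends (−0.467), 0.25 for width (23.3 bp) and 0.25 for marked gene ends (−0.30), where 0.25 is the smallest possible. Same-numbered libraries correlated by 0.0183, 0.0391 and 0.0242 in their deviations over 837 gene ends, so the numbers were not taken as pairs. Fragment depth limits what a missing peak can show.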

Other observations

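Several of the strongest p130 sites belong to no list used above. The shared promoter of Cep57, a centrosomal protein, and Fam76b had folds of 30.6, 16.4 and 16.1 in KO 1, 2 and 3, against 15.3, 11.3 and 18.6 in WT 1, 2 and 3. Emsy, a chromatin protein that binds BRCA2, had folds of 15.2, 6.64 and 10.1 in KO, against 10.2, 12.3 and 12.9 in WT. The folds of the genotypes overlapped at both sites.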
